A study of Mus musculus with 4 samples.

Results

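Adhesion receptor genes of 3 families were followed in the accessible chromatin of lymph node fibroblasts with and without a Cre that targets Notch2. The set comprised 35 genes, namely 20 integrin subunits, 9 adhesion molecules with immunoglobulin domains (Icam1, Icam2, Vcam1, Madcam1, Alcam and Cadm1 to Cadm4) and 6 cadherins (Cdh2, Cdh3, Cdh4, Cdh6, Cdh11 and Cdh13). Their members are the accessible regions assigned to these genes, 452 of 110110 regions in all: 242 at integrins, 90 at immunoglobulin-type molecules and 120 at cadherins. A region is a run of neighbouring 300-bp windows, represented by the window with the most counts. It was given the protein-coding gene that this window's midpoint overlaps, or else the nearest gene within 100000 bp, which does not show that it acts on that gene. All 35 genes had at least 1 region, from 1 at Itga10, Icam1 and Madcam1 to 40 at Cdh13, and 304 of the regions lay inside their gene.

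The assay was ATAC-seq, which maps open chromatin by where a transposase can cut and tag DNA. Each library came from 50000 cells. The cells were fibroblastic reticular cells, sorted as BP3hi Pdpn+ CD31- CD45- cells from brachial, axillary and inguinal nodes of female C57BL/6 mice aged 12 weeks. Both genotypes carried floxed Notch2 alleles (Notch2 fl/fl). The knockout group (Notch2_cKO, 2 libraries) also carried Ccl19-Cre, which is driven by Ccl19 regulatory sequence, and the littermates without it were the controls (2 libraries). Each library was a pool of 6 mice, so values of single animals are not seen, and a node fibroblast without Ccl19-Cre activity would keep Notch2.

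Integrins are heterodimers of an alpha and a beta subunit that tie cells to matrix proteins such as collagen, laminin and fibronectin, and some also bind receptors on other cells. Icam1, Vcam1 and Madcam1 are immunoglobulin-type ligands for the integrins of leukocytes, and Vcam1 and Icam1 are abundant on reticular cells of the node. Cadherins join like cells to one another through calcium-dependent contacts.

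The libraries held 23629588 and 25740366 counts over the best windows in control replicates 1 and 2, and 30260067 and 12340742 in Notch2_cKO replicates 1 and 2. Notch2_cKO replicate 2 therefore carries the largest counting error. Control replicate 2 held 221 counts at Ddx3y and 201 at Eif2s3y, Y-linked genes at which the other libraries held 0, against its label of female mice, so counts of calls are also given without it. The region at the start of Notch2 was not called (edgeR, adjusted p = 0.34). It does not check the deletion, and the sources used here do not name the floxed exons. Of 7 listed reticular cell markers, 4 had a region at a gene start or end (Pdpn, Pdgfrb, Ltbr, Bst1) and none was found at Pdgfra, Ccl19 or Ccl21a. Those 4 had a summed level of 104 to 111 CPM in controls and 98.9 to 110 CPM in Notch2_cKO. Blood endothelial markers had such a region at 1 of 5 genes (Kdr), with 7.81 to 8.44 CPM in controls and 6.91 to 8.55 in Notch2_cKO, and none at Pecam1, Cdh5, Tie1 or Esam. Lymphatic endothelial markers had one at 2 of 3 (Prox1 and Flt4, 21.7 to 23.6 against 23.7 to 24.2 CPM), with none at Lyve1. Of the leukocyte markers Spi1 had one (16 to 16.7 against 17 to 18.6 CPM), with none at Ptprc, Cd3e, Cd79a or Itgam. Mural cell markers had one at 4 of 5 (none at Mcam), with 67.8 to 70.2 CPM in controls and 49.8 to 52.8 in Notch2_cKO. Among them Acta2, Myh11 and Notch3 were lower, and Rgs5 was not called (log2 change 0.01; edgeR, adjusted p = 0.961).

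Levels below are normalized CPM (loess-adjusted counts scaled to the library total), for a window of fixed width, so that regions of different genes can be compared. A change is the log2 ratio of Notch2_cKO to control, given with its standard error (SE). A region is called higher or lower where its edgeR quasi-likelihood p, adjusted by Benjamini and Hochberg over all 110110 regions, is under 0.05. Groups of 2 cannot give an exact permutation p below 0.333, so a single region rests on the spread shared across regions.

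Of the 452 adhesion receptor regions, 56 were higher in Notch2_cKO (12.4%) and 70 lower (15.5%), and 326 did not pass. Among all regions tested, 12.4% were higher and 11.3% lower (23.7% called in all). The share of higher regions was thus that of the background, and the share of lower regions lay somewhat above it. The median log2 change was -0.08, against 0.01 over all regions. Both Notch2_cKO libraries lay above both controls at 112 of the regions and below both at 165, where 30% and 29.8% of all regions did so (59.8% in either direction). Lower regions had a median of 6.05 CPM in controls and 3.74 in Notch2_cKO, and higher regions 2.02 and 4.5 CPM. Over all regions these medians were 4.65 and 2.41 CPM for lower regions, and 2.49 and 5.21 CPM for higher ones. The calls use these same levels, so the order in each group is partly set by the call. Without control replicate 2 the counts were 33 higher and 47 lower (7.3% and 10.4%), where 8.04% and 7.47% of all regions were called in that fit. In bulk chromatin, a change of accessibility per cell and a change in the mix of cells cannot be told apart.

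Integrin regions had 31 higher and 34 lower of 242 (12.8% and 14%), with a median log2 change of -0.01. Immunoglobulin-type regions had 7 higher and 19 lower of 90 (7.78% and 21.1%), with a median of -0.15. Cadherin regions had 18 higher and 17 lower of 120 (15% and 14.2%), with a median of -0.11. Differences between families were not tested. Without control replicate 2, integrins had 18 higher and 22 lower, immunoglobulin-type regions 2 higher and 13 lower, and cadherins 13 higher and 12 lower. Immunoglobulin-type regions had 12 lower without control replicate 1 and 12 without Notch2_cKO replicate 1, with 4 higher in each case, and cadherins had 11 lower without control replicate 1. Over all regions, too, fewer were called in each direction with any of these libraries left out, so a smaller count is not particular to a family. Within a gene, the called regions were all higher at 10 genes, all lower at 9 and mixed at 12, and 4 genes (Itga5, Itgb2, Itgb7 and Icam1) had none.

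**Figure D1:**
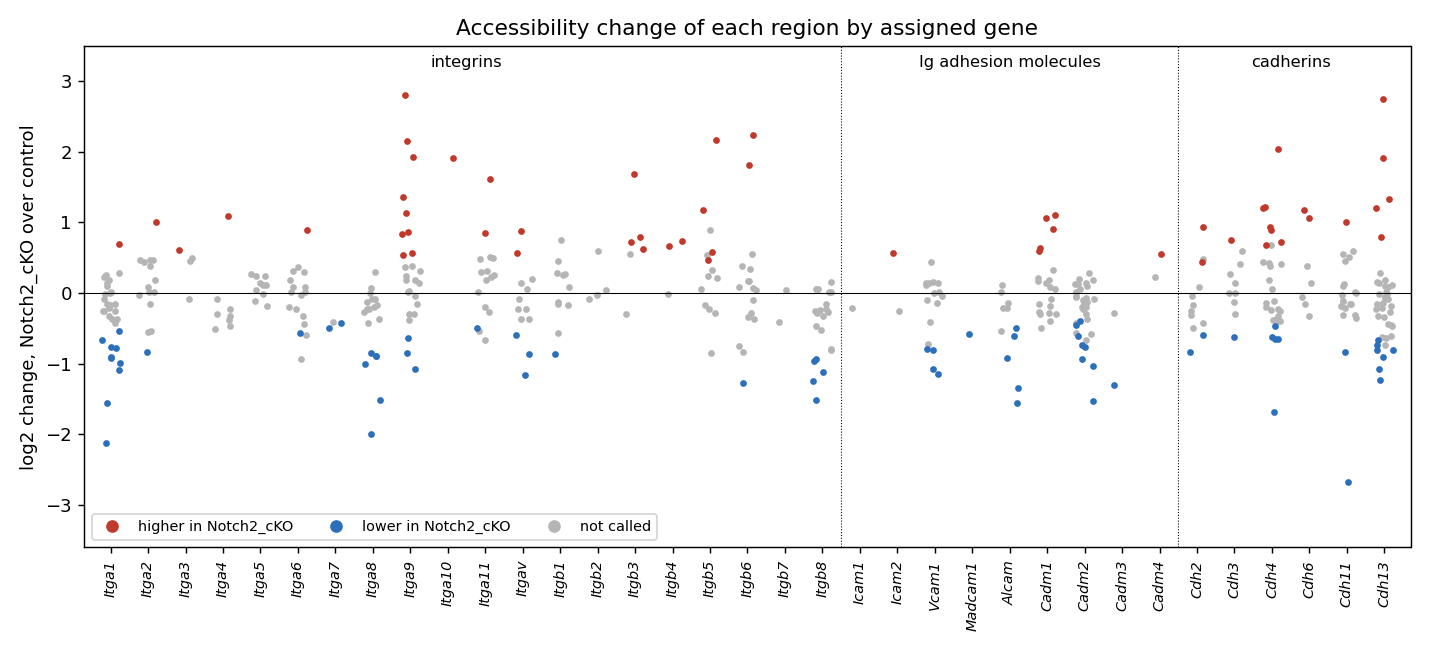
Log2 change of accessibility (Notch2_cKO over control, y axis) for each of the 452 regions, one point per region, by assigned gene (x axis); red regions were called higher, blue lower and grey not called. Called regions ran from -2.67 at Cdh11 to 2.81 at Itga9, and at Itga8, Itgb8, Alcam and Cadm2 every called region was lower. The highest Itga9 region was covered by 5 and 11 control counts and 76 and 28 from Notch2_cKO.

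Outside genes, member regions were called lower more often than higher. Of 140 member regions outside their gene and over 1000 bp from its start, 9 were higher and 28 lower (6.43% and 20%), where 13% and 11% of such regions of all genes were higher and lower. These members had 8 higher and 18 lower without control replicate 2, and without Notch2_cKO replicate 1, 7 higher and 17 lower. Over all regions, too, fewer were called in these fits than in the full one. Of 290 inside the gene and away from the start, 44 were higher and 40 lower (15.2% and 13.8%), beside 13.6% and 11.7% for all genes. Of the 28 lower regions outside genes, 6 lay at Itga1, 5 at Itgb8 and 4 at Vcam1, so some are neighbours at 1 locus.

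At gene starts 5 of 22 member regions were called. Within 1000 bp of a start (of either gene end for the 8 genes whose strand was not used here) there were 22 regions, 1 for each of 22 genes, with control means from 2.15 to 90.6 CPM. Of these, 3 were higher (13.6%), 2 lower (9.09%) and 17 not called, against 5.35% higher and 4.02% lower among 12973 such regions of all genes (9.37% called, beside 22.7% of the members). The log2 changes of the 17 ran from -0.16 to 0.24. Among these, control means were 12.0 at Itgb6, 20.0 at Itga6, 29.0 at Cadm1, 29.2 at Itga2, 43.1 at Cdh4, 57.3 at Cdh11 and 72.5 CPM at Itgav. Cadm4, with 10.5 and 9.35 CPM in the controls and 13.9 and 8.59 in Notch2_cKO, overlapped between the groups. The most open was the start of Alcam, which encodes a molecule that binds itself and CD6 on T cells, with 90.6 ± 2.21 CPM in control and 82.2 ± 0.124 in Notch2_cKO (SD, n = 2 here and below). The start of Itga1 had 74.6 ± 1.05 and 75.1 ± 6.71 CPM, and that of Vcam1 43.1 ± 3.74 and 47 ± 6.01 CPM. The direction at these last 2 starts, and at the start of Itgb8, turned with TMM scaling, median centring and DESeq2.

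The 2 lower starts belonged to Madcam1 and Itga7. Madcam1 encodes the addressin bound by integrin alpha4 beta7 of lymphocytes, and is also found on stromal cells at the node's margin. Its only region (chromosome 10, 79664051 to 79664750) had 14.5 and 15.8 CPM in the controls and 10.2 and 10 CPM in Notch2_cKO, from 328, 402, 318 and 128 counts. Both knockout libraries lay below both controls (log2 change -0.58, SE 0.14, edgeR, adjusted p = 0.00529), while the 10 regions on either side had a median log2 change of 0.02. The call was lost without control replicate 2 (edgeR, adjusted p = 0.0827). Itga7, the laminin-binding subunit of muscle, had 19.4 and 19.2 against 13.9 and 13.2 CPM at one end of the gene (chromosome 10, 128933501 to 128934250; log2 change -0.5, SE 0.13, edgeR, adjusted p = 0.0087). This call was lost without control replicate 1 (edgeR, adjusted p = 0.0705) and without control replicate 2 (0.0707).

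The 3 higher ones belonged to Itgb3, Itga3 and Itgb4, all on chromosome 11. At one end of Itgb3, which encodes the beta3 subunit of the vitronectin receptor, the controls had 9.44 and 5.92 CPM and Notch2_cKO 14.2 and 12.1 CPM (chromosome 11, 104607801 to 104608400; log2 change 0.80, SE 0.18, edgeR, adjusted p = 0.00339). The call was lost without control replicate 2, the lower control (edgeR, adjusted p = 0.158). The start of Itga3, which pairs with beta1 to bind laminin, had 2.8 and 3.02 against 4.67 and 4.07 CPM (log2 change 0.61, SE 0.20, edgeR, adjusted p = 0.0304), and one end of Itgb4, the beta subunit of hemidesmosomes, had 2.07 and 2.23 against 3.52 and 3.23 CPM (log2 change 0.66, SE 0.22, edgeR, adjusted p = 0.0315). At both genes the groups did not overlap. Both calls were lost without control replicate 1, control replicate 2 or Notch2_cKO replicate 1, the adjusted p reaching 0.232 at Itga3 and 0.191 at Itgb4. Without control replicate 2, none of the 22 gene-end regions was called in either direction by edgeR. Regions of chromosome 11 as a whole were higher more often (20%) and lower less often (5.72%) than all regions. The 4 member genes there (Itga3, Itgb3, Itgb4 and Icam2) had 8 higher and 0 lower of 15 regions. With chromosome 11 left out of the fit, members had 48 higher and 68 lower of 437 regions. All regions, without the 6607 on that chromosome, had 12897 higher and 11601 lower in that fit.

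The promoter sequences of the 2 called starts with a listed strand are shown because accessibility changed over them in opposite directions. Each runs from 250 bases before the start to the base before it, on the gene's strand, from RefSeq with build GRCm38.p6 (chr10:79664309-79664558, plus strand, and chr11:95076715-95076964, minus strand), with matches to the searched motifs in capitals.
Madcam1: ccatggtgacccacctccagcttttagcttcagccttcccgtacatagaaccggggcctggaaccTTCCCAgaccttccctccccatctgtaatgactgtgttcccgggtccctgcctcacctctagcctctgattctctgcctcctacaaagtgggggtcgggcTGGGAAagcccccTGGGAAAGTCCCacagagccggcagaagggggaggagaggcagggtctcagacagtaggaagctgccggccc
Itga3: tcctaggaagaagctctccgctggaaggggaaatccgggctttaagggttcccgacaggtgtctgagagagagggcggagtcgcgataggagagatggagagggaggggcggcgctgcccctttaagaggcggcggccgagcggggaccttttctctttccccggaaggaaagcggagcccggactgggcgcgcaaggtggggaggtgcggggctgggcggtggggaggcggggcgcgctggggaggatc
The motifs searched on both strands were TGGGAA (Rbpj, the DNA-binding partner of Notch), TGANTCA (AP-1), GGAATG (TEAD) and the longer Ebf and NF-kappaB motifs. The Madcam1 window held 3 matches to the Rbpj letters, beginning 185 (as TTCCCA), 85 and 72 bases before the start. It also held GGAAAGTCCC, the reverse form of the NF-kappaB letters, beginning 70 bases before the start and overlapping the last of them. Of 21262 promoter windows of the same length, 20.9% held the Rbpj letters and 0.372% the NF-kappaB letters. Among the 22 member genes with a listed promoter, Madcam1 was the only one with either. The Itga3 window held no match and 22 CG pairs, against 6 at Madcam1. A match is only a string of letters, and neither factor's binding was measured.

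**Figure D2:**
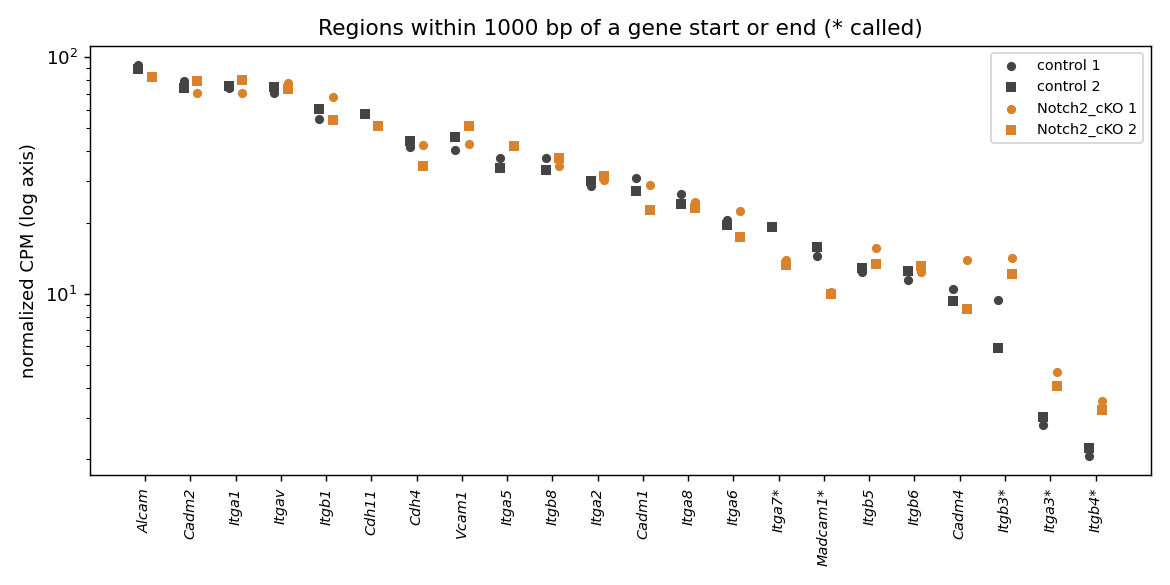
Normalized CPM (log axis) in each of the 4 libraries at the 22 regions within 1000 bp of a gene start or end, ordered by the control mean; grey points are controls, orange points Notch2_cKO, and an asterisk marks a called region. Alcam, Cadm2, Itga1 and Itgav are the most open, the last 3 with overlapping groups, and Itga7 and Madcam1 are the 2 asterisks with lower orange points.

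Among the alpha subunits that bind collagen, Itga1 had the most lower regions. Itga1 and Itga2 pair with beta1 as the main collagen receptors of fibroblasts and other cells. At Itga1, 10 of 32 regions were lower (31.2%) and 1 higher (3.12%), beside 11.3% and 12.4% of all regions. Of the 9 regions upstream of its start 6 were lower, with a median log2 change of -0.91 upstream, while the start itself had a log2 change of 0.00 (SE 0.09), which was -0.21 with TMM scaling, median centring or DESeq2. The member region of smallest p lay 68886 bp from the gene (chromosome 13, 115170501 to 115171200). It had 14.5 and 15.2 CPM in the controls and 3.1 and 3.97 CPM in Notch2_cKO, a fall of 4.34-fold (log2 change -2.12, SE 0.17, edgeR, adjusted p = 9.56e-08). The regions around it had a median log2 change of -0.27. A further region 97386 bp from the gene (115199051 to 115199650) had 24.7 and 23.4 against 12.2 and 13.4 CPM (log2 change -0.92, SE 0.13, edgeR, adjusted p = 4.2e-05). Inside the gene, a region from 115043851 to 115044300 had 4.52 and 4.77 against 1.5 and 1.77 CPM (log2 change -1.55, SE 0.22, edgeR, adjusted p = 3.8e-05). All 3 kept their call with each library left out, as did the single higher region described next, but the other 7 lower regions of Itga1 did not. Leaving out Notch2_cKO replicate 1 gave 3 lower at Itga1, and leaving out either control gave 6. Of the 9 upstream regions, 2 were lower without Notch2_cKO replicate 1, 3 without control replicate 2 and 4 without control replicate 1. The single higher region of Itga1, from 114964101 to 114964700 inside the gene, had 10.9 and 10.6 against 16.5 and 18.6 CPM (log2 change 0.70, SE 0.14, edgeR, adjusted p = 0.00111).

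Of the other collagen-binding subunits, Itga2 had 13.3% and Itga11 18.8% of regions called, beside 23.7% of all regions, and the only region of Itga10 was called. Itga10, a collagen II receptor of cartilage, had 1 region, inside the gene (chromosome 3, 96652251 to 96652800), covered by 12 and 17 control counts and 79 and 23 from Notch2_cKO. This corresponds to 0.513 and 0.692 against 2.62 and 1.75 CPM (log2 change 1.92, SE 0.32, edgeR, adjusted p = 0.000179), a low level in both groups. Itga11, a fibrillar collagen receptor of fibroblasts, had 2 higher and 1 lower of 16 regions, with 5.42 and 5.37 against 10.2 and 9.08 CPM at a region 23255 bp from the gene (log2 change 0.85, SE 0.16, edgeR, adjusted p = 0.00067). Itga2 had 1 higher and 1 lower of 15. Its higher region had 1.73 and 2.19 against 3.71 and 4.38 CPM (log2 change 1.01, SE 0.22, edgeR, adjusted p = 0.00228). Its lower region had 8.63 and 6.52 against 3.34 and 5.72 CPM (log2 change -0.83, SE 0.22, edgeR, adjusted p = 0.00848), a call lost without control replicate 1 or Notch2_cKO replicate 1. The lower region of Itga11 had 8.08 and 8.68 against 5.8 and 6.2 CPM (edgeR, adjusted p = 0.0333).

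Laminin-binding subunits had a share of called regions near that of all regions (20.8% beside 23.7%). Of 24 regions at Itga3, Itga6 and Itga7, 2 were higher and 3 lower (8.33% and 12.5%, beside 12.4% and 11.3% of all regions). Both called regions at Itga6, a subunit of hemidesmosomes and of many basement membrane contacts, lay outside the gene. One, 96236 bp away, had 3.52 and 3.17 against 6.26 and 6.08 CPM (log2 change 0.89, SE 0.18, edgeR, adjusted p = 0.0013), and the other was lower (log2 change -0.56, SE 0.15, edgeR, adjusted p = 0.0108; 0.149 without control replicate 2).

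Itga8 had the most lower regions among the RGD-binding subunits, which recognize the short RGD sequence of fibronectin and related proteins. Itga8 pairs with beta1, binds nephronectin and is found on mesenchymal and smooth muscle cells. Lower regions made up 31.6% of its regions, beside 11.3% of all regions. Of its 19 regions 6 were lower and 0 higher, and all 6 kept their call with each library left out. The one of smallest p, inside the gene (chromosome 2, 12154601 to 12155200), had 18.8 and 18 CPM in the controls and 9.29 and 8.82 in Notch2_cKO (log2 change -1.01, SE 0.14, edgeR, adjusted p = 2.96e-05). The largest fall, from 12148001 to 12148350, was from 3.04 and 2.74 to 0.593 and 0.996 CPM (log2 change -1.99, SE 0.29, edgeR, adjusted p = 5.38e-05). That region was covered by 70 and 68 control counts and 18 and 13 from Notch2_cKO. At the start of Itga8 the levels were 25.2 ± 1.6 and 23.7 ± 0.941 CPM, and that region was not called. The mural marker sum given above moved the same way as Itga1, Itga7 and Itga8, and its part in these falls was not tested. Itgav, the shared alpha subunit of several vitronectin and TGF-beta activating receptors, had 2 higher and 3 lower of 13 regions. These were 15.4% and 23.1%, beside 12.4% and 11.3% of all regions. The lower one of smallest p, inside the gene (83744201 to 83744850), had 15.1 and 13.5 against 7.57 and 8.36 CPM (log2 change -0.86, SE 0.15, edgeR, adjusted p = 0.000328). The higher one had 5.38 and 3.16 against 6.74 and 9.27 CPM (log2 change 0.88, SE 0.22, edgeR, adjusted p = 0.0063; 0.145 without control replicate 2). Itga5, the classical fibronectin receptor subunit, had 0 called of 10 regions, and its start had 35.7 ± 2.44 and 42.3 ± 0.0134 CPM (log2 change 0.24, SE 0.10, edgeR, adjusted p = 0.0976).

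Itga9 had many higher regions. It pairs with beta1 and binds tenascin-C, osteopontin and VCAM1 as alpha4 does. Of 26 regions 9 were higher and 3 lower, and without control replicate 2 these counts were 5 and 1. Inside the gene on chromosome 9, a region from 118885701 to 118886300 rose from 1.07 and 1.39 CPM to 5.49 and 5.53 CPM (log2 change 2.15, SE 0.22, edgeR, adjusted p = 1.31e-06). A second, from 118693151 to 118693700, rose from 1.15 and 1.47 to 5.3 and 4.61 CPM (log2 change 1.93, SE 0.23, edgeR, adjusted p = 4.87e-06). Their neighbours had median log2 changes of 0.16 and 0.21. The lower region of smallest p, from 118878751 to 118879350, lay close to the first and had 5.17 and 6.89 against 3.14 and 3.7 CPM (log2 change -0.85, SE 0.20, edgeR, adjusted p = 0.00371; 0.0933 without control replicate 2). Higher and lower regions thus alternated within the gene. Of the 12 called regions of Itga9, 4 kept their call with each library left out. Itga4, a leukocyte subunit, had 1 higher of 8, 74476 bp from the gene, with 1.31 and 1.44 against 3.01 and 2.84 CPM (log2 change 1.09, SE 0.24, edgeR, adjusted p = 0.00222).

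**Figure D3:**
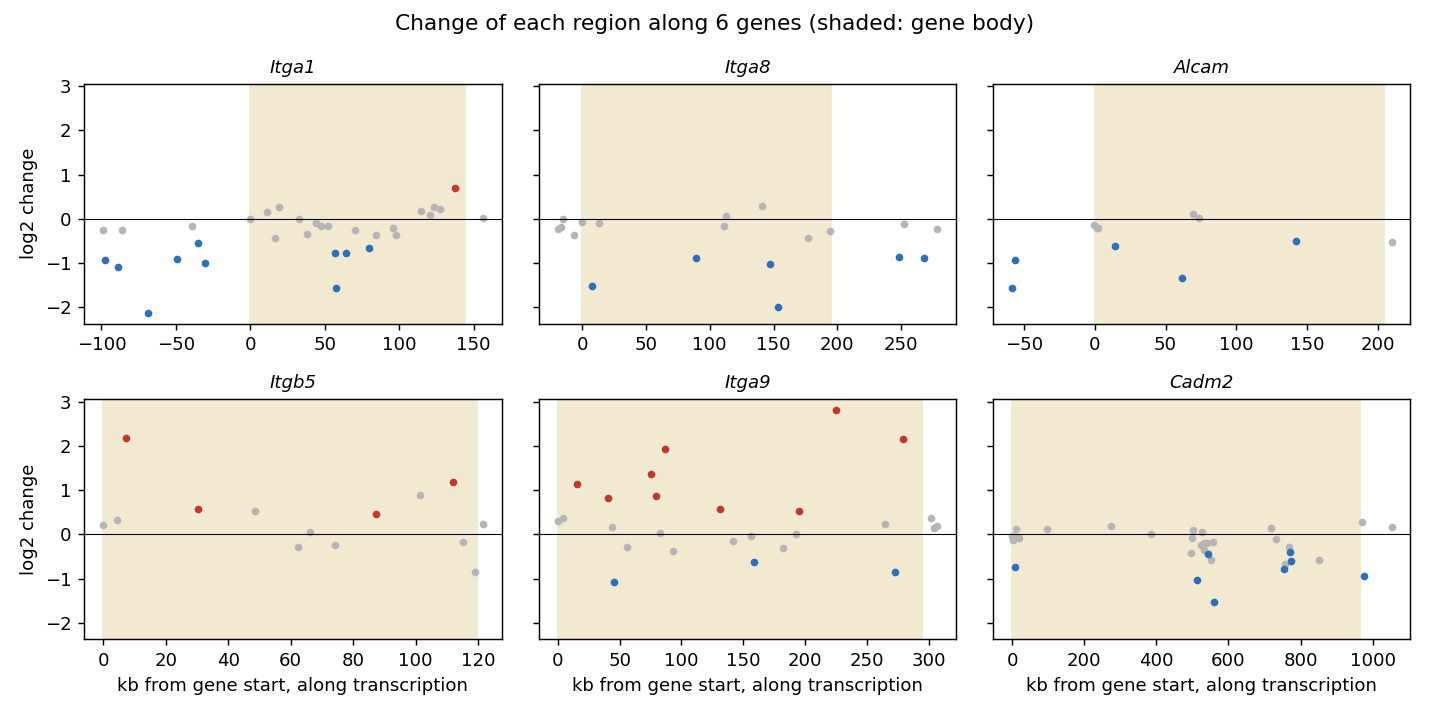
Log2 change (y axis) of each region of 6 genes against its distance from the gene start in kb along the direction of transcription (x axis), with the gene body shaded and colours as above. At Itga1 6 blue points lie upstream of the start while the point at the start is at 0, and at Itga9 9 red points are spread through the gene body.

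Beta subunits divided by gene. Itgb5 and Itgb3, which pair with alphav to bind vitronectin, had 4 higher of 14 (28.6%) and 4 higher of 6 regions (66.7%), and 0 lower. Of all regions 12.4% were higher and 11.3% lower. Without control replicate 2, 2 were higher at Itgb5 and 1 at Itgb3, and without control replicate 1, 2 were higher at Itgb5. Inside Itgb5 (chromosome 16, 33836551 to 33837200) the controls had 1.47 and 1.82 CPM and Notch2_cKO 8.52 and 5.93 CPM (log2 change 2.17, SE 0.22, edgeR, adjusted p = 1.11e-06). A second region of Itgb5, from 33941151 to 33941850, rose from 3.6 and 3.95 to 8.72 and 8.43 CPM (log2 change 1.18, SE 0.17, edgeR, adjusted p = 4.69e-05). The start of Itgb5 had 12.5 ± 0.308 and 14.5 ± 1.64 CPM and was not called. Inside Itgb3 a region from 104611451 to 104612050 rose from 0.915 and 1 to 3.18 and 2.99 CPM (log2 change 1.69, SE 0.25, edgeR, adjusted p = 6.89e-05). Its neighbours on chromosome 11 had a median log2 change of 0.55.

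Itgb8, the partner of alphav that activates latent TGF-beta, had 5 lower and 0 higher of 21 regions, all 5 outside the gene. These were 23.8% of its regions, beside 11.3% lower and 12.4% higher among all regions. The one of smallest p, 7153 bp away (chromosome 12, 119155401 to 119156000), fell from 10.5 and 9.08 to 4.67 and 4.26 CPM (log2 change -1.12, SE 0.17, edgeR, adjusted p = 8e-05). At the start the levels were 35.4 ± 3.15 and 35.9 ± 1.91 CPM. Itgb6, the epithelial partner of alphav, had 2 higher and 1 lower of 17 (11.8% and 5.88%). A region 14592 bp from Itgb6 (chromosome 2, 60583451 to 60583850) had the smallest p of all higher integrin regions, with 1.38 and 1.51 CPM in controls and 6.58 and 7.31 CPM in Notch2_cKO (log2 change 2.24, SE 0.21, edgeR, adjusted p = 3.51e-07). The lower region, inside Itgb6, had 4.48 and 4.73 against 1.72 and 2.23 CPM (log2 change -1.28, SE 0.22, edgeR, adjusted p = 0.000227). Itgb1, the partner of most alpha subunits here, had 1 lower of 11 regions (9.09%). That region, 5604 bp from the gene, had 13.3 and 12.1 against 6.87 and 7.17 CPM (log2 change -0.86, SE 0.15, edgeR, adjusted p = 0.000376). Its start had 57.6 ± 4.25 and 60.9 ± 9.49 CPM. The leukocyte subunits Itgb2 and Itgb7 had 0 called of 4 and of 2 regions, and Itgb4 had 2 higher of 3.

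**Figure D4:**
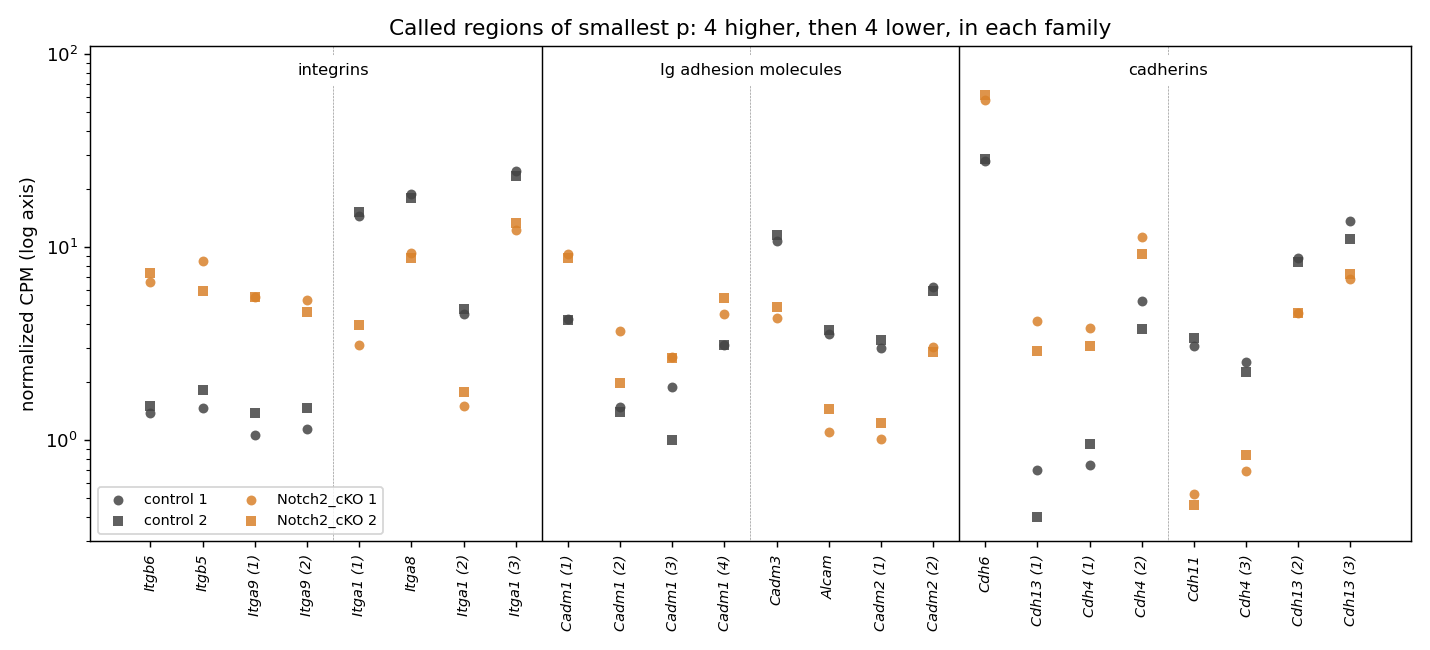
Normalized CPM (log axis) per library at the 4 higher and the 4 lower regions of smallest p in each family; grey marks controls and orange Notch2_cKO, with circles for replicate 1 and squares for replicate 2. In all 24 regions both orange points lie on one side of both grey points, as at 59.8% of all regions. Choosing regions by smallest p favours such a split. Log2 changes ran from -2.67 at Cdh11 to 2.75 at Cdh13.

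At Vcam1 and Alcam the called regions lay away from the open starts, and all were lower. VCAM1 is the ligand of integrin alpha4 beta1 and a surface marker of reticular cells. Of its 17 regions 4 were lower (23.5%, beside 11.3% of all regions) and 0 higher, all 4 outside the gene. The most open of these, 29720 bp away (chromosome 3, 116080051 to 116080650), had 32.1 and 29.8 CPM in the controls and 14.9 and 21.9 in Notch2_cKO (log2 change -0.79, SE 0.15, edgeR, adjusted p = 0.000551). The other 3 had at most 2.43 CPM in any library. At Alcam 5 of 11 regions were lower (45.5%) and 0 higher. The one of smallest p, 58219 bp from the gene (chromosome 16, 52511001 to 52511550), fell from 3.56 and 3.72 to 1.11 and 1.46 CPM (log2 change -1.56, SE 0.24, edgeR, adjusted p = 9.53e-05), among neighbours with a median log2 change of -0.61. Leaving out control replicate 2 gave 2 lower at Vcam1. At Alcam 3 were lower without control replicate 1 and 3 without Notch2_cKO replicate 1. With each library left out in turn, 2 of the 4 Vcam1 regions and 2 of the 5 Alcam regions kept their call. Icam1, the ligand of integrin LFA-1, had a single weak region inside the gene with 0.985 and 2.07 against 1.26 and 1.45 CPM, and the groups overlapped (log2 change -0.21, SE 0.33, edgeR, adjusted p = 0.695). Icam2, an endothelial and leukocyte ligand of the same integrin, had 1 higher of 2 regions (2.85 and 3.18 against 4.7 and 4.15 CPM; log2 change 0.57, SE 0.20, edgeR, adjusted p = 0.0397), a call lost without control replicate 2 (0.112).

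The Cadm genes, whose products join cells of epithelia and nerves, went in different directions. Cadm1 had 23.8% of its regions higher and Cadm2 24.2% lower, beside 12.4% and 11.3% of all regions. Cadm2 had 8 lower and 0 higher of 33 regions, and Cadm3 1 lower of 2. Leaving out Notch2_cKO replicate 1 gave 3 lower at Cadm2, and leaving out control replicate 1 gave 4. Inside Cadm3 (chromosome 1, 173366001 to 173366300) the level fell from 10.7 and 11.6 to 4.31 and 4.89 CPM (log2 change -1.30, SE 0.17, edgeR, adjusted p = 1.24e-05). Inside Cadm2 on chromosome 16, a region from 67061801 to 67062350 fell from 3.02 and 3.29 to 1.02 and 1.23 CPM (log2 change -1.53, SE 0.25, edgeR, adjusted p = 0.000171), and one from 67106551 to 67107150 fell from 6.24 and 5.9 to 3.05 and 2.85 CPM (log2 change -1.03, SE 0.19, edgeR, adjusted p = 0.000443). The start of Cadm2 had 76.5 ± 3.62 and 74.8 ± 6.42 CPM. Cadm1 had 5 higher and 0 lower of 21 regions, and 2 higher without control replicate 2 or without Notch2_cKO replicate 1. Its region of smallest p, from 47682751 to 47683450 on chromosome 9, rose from 4.27 and 4.18 to 9.21 and 8.82 CPM (log2 change 1.10, SE 0.17, edgeR, adjusted p = 7.74e-05). It was the only 1 of the 5 to keep its call with each library left out. The next 3 of Cadm1 had 1.49 and 1.4 against 3.67 and 1.99 CPM (47516101 to 47516700), 1.88 and 1 against 2.69 and 2.68 CPM (47674751 to 47675300), and 3.12 and 3.13 against 4.51 and 5.46 CPM (47589701 to 47590300). The first of these lost its call without Notch2_cKO replicate 1 (edgeR, adjusted p = 0.475). Without control replicate 2 the last 2 had edgeR-adjusted p of 0.338 and 0.107. Cadm4 had 1 higher of 2 (log2 change 0.56, SE 0.19, edgeR, adjusted p = 0.0388; 0.112 without control replicate 2).

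Cdh6 had the gain of smallest p among the cadherins. It is a type II cadherin of kidney and neural tissue. Inside the gene (chromosome 15, 13076801 to 13077500) the controls had 28 and 28.6 CPM and Notch2_cKO 57.5 and 61.6 CPM, from 679, 755, 1722 and 732 counts (log2 change 1.07, SE 0.10, edgeR, adjusted p = 4.07e-07). The regions around it had a median log2 change of -0.18. A second region of Cdh6, from 13066401 to 13066750, was also higher, and none of its 7 was lower. Both kept their call with each library left out.

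Cdh11, the type II cadherin of fibroblasts and osteoblasts, had 1 higher and 2 lower of 21 regions (4.76% and 9.52%). The largest fall among the members lay 60057 bp from it (chromosome 8, 102845351 to 102845900), covered by 71 and 84 control counts and 16 and 6 from Notch2_cKO. In CPM this was 3.08 and 3.38 against 0.526 and 0.46 (log2 change -2.67, SE 0.29, edgeR, adjusted p = 2.29e-06). The higher region, inside Cdh11, had 1.75 and 1.08 against 2.36 and 3.6 CPM (log2 change 1.00, SE 0.28, edgeR, adjusted p = 0.0131; 0.159 without control replicate 2). Cdh13, or T-cadherin, is anchored in the membrane by a lipid and binds adiponectin. Of its 40 regions, all inside this long gene, 5 were higher and 7 lower. These were 12.5% and 17.5%, beside 12.4% and 11.3% of all regions. Leaving out Notch2_cKO replicate 1 gave 3 lower, and leaving out control replicate 1 gave 4. The higher one of smallest p, from 118566301 to 118566700, was covered by 16 and 10 control counts and 127 and 38 from Notch2_cKO, or 0.698 and 0.401 against 4.17 and 2.91 CPM (log2 change 2.75, SE 0.31, edgeR, adjusted p = 2.74e-06). Lower regions of Cdh13 had 8.8 and 8.37 against 4.57 and 4.57 CPM from 118973301 to 118973950 (log2 change -0.91, SE 0.17, edgeR, adjusted p = 0.000505), and 13.7 and 11 against 6.84 and 7.25 CPM from 119098151 to 119098750 (log2 change -0.81, SE 0.16, edgeR, adjusted p = 0.00101).

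Among the classical cadherins, Cdh4 (R-cadherin) had 7 higher (23.3%) and 5 lower (16.7%) of 30 regions, all inside the gene on chromosome 2. Without control replicate 1 or control replicate 2, 3 were lower. The higher regions of smallest p had 0.743 and 0.962 against 3.83 and 3.07 CPM (179867701 to 179868250; log2 change 2.04, SE 0.26, edgeR, adjusted p = 1.34e-05), and 5.28 and 3.79 against 11.3 and 9.23 CPM (179630551 to 179631250; log2 change 1.21, SE 0.18, edgeR, adjusted p = 7.66e-05). The lower one had 2.54 and 2.26 against 0.695 and 0.841 CPM (179521601 to 179521900; log2 change -1.68, SE 0.29, edgeR, adjusted p = 0.000246). Cdh2, or N-cadherin, had 2 higher and 2 lower of 12 regions, and Cdh3, or P-cadherin, 1 and 1 of 10. These were 16.7% and 16.7% at Cdh2 and 10% and 10% at Cdh3, beside 12.4% and 11.3% of all regions. The lower Cdh2 region of smallest p had 11.4 and 8.6 against 5.25 and 6.13 CPM (log2 change -0.83, SE 0.18, edgeR, adjusted p = 0.00179). Its higher one had 1.4 and 1.52 against 2.82 and 2.76 CPM (log2 change 0.93, SE 0.24, edgeR, adjusted p = 0.00715). At Cdh3 the higher region had 5.51 and 5.41 against 10.2 and 7.75 CPM (log2 change 0.75, SE 0.17, edgeR, adjusted p = 0.00319), and the lower one 11.3 and 11.7 against 7.36 and 7.71 CPM (log2 change -0.62, SE 0.15, edgeR, adjusted p = 0.00552).

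To give each gene 1 value, counts were summed over all its regions and fitted over the 17668 genes with a region. Of the 35 members, 7 were higher (Itga5, Itga9, Itga10, Itgb3, Itgb5, Cadm1 and Cdh6) and 6 lower (Itga1, Itga7, Itga8, Madcam1, Alcam and Cadm3), against 10.4% higher and 8.31% lower among all genes (18.7% called). Members were thus called in 13 of 35. They had more regions per gene (452 over 35 genes, beside 95424 over 17668), and how far this raised their share of calls was not tested. Cdh6 rose from 49.4 ± 0.258 to 86 ± 4.94 summed CPM (log2 change 0.79, SE 0.08, edgeR, adjusted p = 3.16e-05). Itgb3 rose from 22.1 ± 4.29 to 37.9 ± 1 (log2 change 0.78, SE 0.13, edgeR, adjusted p = 0.00098), and Itgb5 from 92.8 ± 7.22 to 123 ± 9.23 (log2 change 0.41, SE 0.08, edgeR, adjusted p = 0.00274). Cadm3 fell from 16.3 ± 0.106 to 8.2 ± 1.05 (log2 change -1.02, SE 0.14, edgeR, adjusted p = 0.000296). Alcam fell from 176 ± 4.51 to 145 ± 0.741 (log2 change -0.27, SE 0.06, edgeR, adjusted p = 0.00698), and Itga8 from 155 ± 3.25 to 127 ± 1.97 (log2 change -0.29, SE 0.06, edgeR, adjusted p = 0.00552). The sum of Itga5 rose although none of its regions was called, from 104 ± 6.31 to 121 ± 1.16 (log2 change 0.22, SE 0.07, edgeR, adjusted p = 0.0417). The sum of Itga1 fell from 360 ± 2.21 to 319 ± 19.1 (log2 change -0.18, SE 0.06, edgeR, adjusted p = 0.0391). Log2 changes of the sums were -0.43 at Itga7 (SE 0.1), -0.64 at Madcam1 (SE 0.13), 0.37 at Itga9 (SE 0.07) and 0.23 at Cadm1 (SE 0.07). Sums at Vcam1, with 200 ± 6.62 and 197 ± 18.8, and at Itgb1, with 121 ± 0.561 and 123 ± 1.93, were not called. The 22 sums that were not called had log2 changes from -0.19 to 0.42.

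Several calls on sums were lost with a library left out. Without control replicate 1, 4 members were higher and 2 lower, and Itga1, Itga5, Itga7, Itga8, Itga9, Alcam and Cadm1 were no longer called (edgeR, adjusted p from 0.0617 to 0.125). Without control replicate 2, 5 were higher and 6 lower, and Itga1, Itga5 and Cadm1 lost their call. Without Notch2_cKO replicate 2, 11 were higher and 7 lower. The sums of Itga10, Itgb3, Itgb5, Madcam1, Cadm3 and Cdh6 kept their call with each of the 4 libraries left out. Madcam1 has 1 region, so its sum holds the same counts as the region whose call was lost, and without control replicate 2 it passed at an edgeR, adjusted p = 0.0479.

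**Figure D5:**
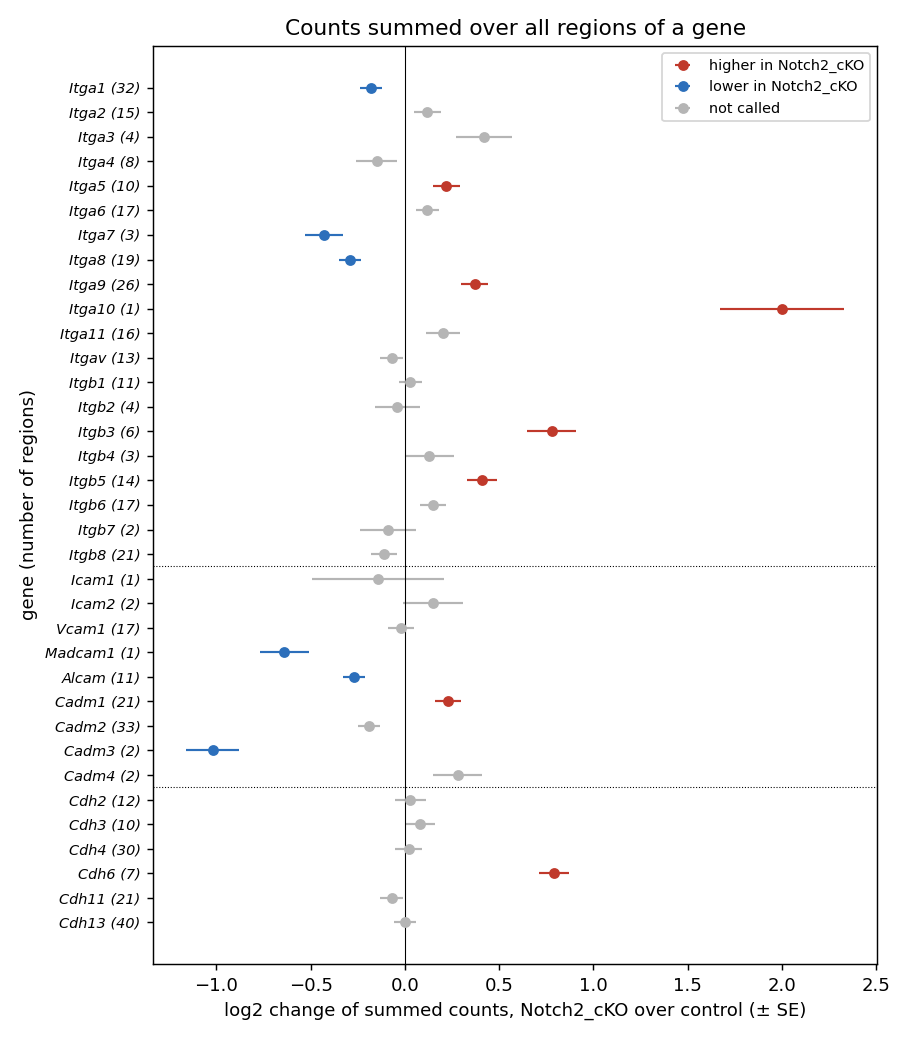
Log2 change of counts summed over all regions of a gene (x axis, Notch2_cKO over control, bars are ± SE) for the 35 genes, with the number of regions in brackets and dotted lines between families. Itga10, with a single weak region, has the largest value (2.00, SE 0.33), and genes with over 10 regions lie between -0.29 at Itga8 and 0.41 at Itgb5.

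A further list held 31 genes, all with a region: proteins that link these receptors to actin, and the 4 nectins, which are themselves immunoglobulin-type adhesion receptors. Of 357 regions 52 were higher and 28 lower (14.6% and 7.84%), against 12.4% and 11.3% of all regions, and the median log2 change was 0.04. The nectins made up 33 of these regions, with 2 higher and 4 lower, and the linkers alone had 50 higher and 24 lower of 324 (15.4% and 7.41%). The whole list had 30 higher and 22 lower without control replicate 2, and the linkers alone 29 and 19 (8.95% and 5.86%, beside 8.04% and 7.47% of all regions in that fit). With Notch2_cKO replicate 1 left out instead, the share of lower regions among the linkers was no longer below that of all regions. Tensins, which bind the tails of beta integrins, had 16 higher and 1 lower of 55 regions at Tns3, which lies on chromosome 11, and 10 higher and 5 lower of 47 at Tns1. Tns3 thus held 16 of the 50 higher regions of the linkers, so their share of higher regions rests in part on this gene. Higher regions of smallest p lay 87732 bp from Tns1 (log2 change 2.89, SE 0.30), 90302 bp from Tns3 (log2 change 1.86, SE 0.21) and inside Parvb, which encodes a parvin of the complex with integrin-linked kinase (log2 change 2.00, SE 0.25). Lower ones lay inside Tns1 (log2 change -1.10, SE 0.15 and log2 -1.76, SE 0.25) and inside Ptk2, which encodes focal adhesion kinase (log2 change -1.04, SE 0.15). Talin 1 (Tln1), Src and Zyx had 0 called of 4, 10 and 4 regions.

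Receptors of the same families outside the member list had a region at 24 of 28 genes. Of 157 regions 22 were higher and 19 lower (14% and 12.1%), with a median log2 change of 0.04. There were 17 higher and 13 lower without control replicate 2, and without control replicate 1 or without Notch2_cKO replicate 1 there were 12 lower. The higher region of smallest p lay 78363 bp from Cdh5, the endothelial cadherin. It rose from 7.58 ± 1.07 to 28.6 ± 5.77 CPM (log2 change 1.93, SE 0.16, edgeR, adjusted p = 9.29e-08). The lower region of smallest p lay 54395 bp from Cdh17 and fell from 20 ± 0.451 to 4.87 ± 0.879 CPM (log2 change -2.08, SE 0.16, edgeR, adjusted p = 5.11e-08). At Ncam1, the neural cell adhesion molecule, 7 of 17 regions were higher and 2 lower. Cdh5 had no region at its start, as given above.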

How the data were processed

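ATAC-seq libraries of sorted lymph node reticular cells were analysed, 2 control and 2 Notch2_cKO, each a pool of 6 mice per the labels. Whether the pools were sorted separately is not stated there, so p-values measure the spread between these libraries. The submitters' processing notes name build mm10, the aligner Bowtie2 2.4.5, Picard 2.27.5, SAMtools 1.14, deepTools, cutadapt and Trim Galore 0.6.7, and per the labels windows were counted with csaw. How peaks were called, windows filtered and reads shifted for the transposase is not given in the sources used here. In the deposited file are counts in 300-bp windows spaced by 50 bp. Although the labels describe loess normalization, the values are whole numbers with library totals up to 2.45 times apart over best windows, so the deposited counts were treated as counts without normalization.

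Neighbouring windows with gaps of at most 100 bp formed 110110 regions (median 600 bp). Genes came from RefSeq (GRCm38.p6), which gave 95424 regions a gene. That table gives gene bounds and not exons, so exonic and intronic regions are not separated, and gene starts came from the promoter table, which held 22 of the 35 members. Where several genes overlapped, the one with the nearest end was taken. Loess offsets (trend of log count on mean level, 0.5 added) were computed with limma 3.58.1. edgeR 4.0.16 fitted genotype to all 4 libraries by the quasi-likelihood test, for all regions and for gene sums over 17668 genes, in R 4.3.3 with data.table (version 1.17.8). Python 3.11.15 with pandas, numpy and matplotlib built regions and figures. The SE is the absolute log2 change divided by the root of the F statistic. CPM used the sum of best windows. Counting error is largest where a library holds few counts, and counts are given for some of those regions.

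On simulated counts for the region comparison (110110 regions), 4 of 67 regions changed 1.5-fold, 41 of 67 changed 2-fold and 66 of 66 changed 4-fold were recovered, with 3 false calls. For gene sums (17668 genes) these were 55 of 67, 61 of 67 and 66 of 66, with 2 false calls. Only these features were changed in the simulations, while 26103 regions and 3299 gene sums were called in the data. The cut on adjusted p was therefore stricter in the simulations, and their recovery and false calls do not carry over to the data.

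The members, the lists and the rule for named regions were chosen with earlier results of these data known. Full values are given for the 4 called regions of smallest p per direction and family, and for each gene the called region of smallest p per direction, its region at a start or end and its sum where called, with the others by counts. Some called sums are given by log2 change and SE only. Some regions and sums outside this rule (at Itga8, Itgb5, Cdh6, Cadm1, Icam1, Vcam1, Itgb1) are named as well, chosen after their values were seen. Nothing in the labels ties same-numbered replicates to each other. Alternatives were TMM, median centring, DESeq2 1.42.0, limma-trend (prior count 1), a filter leaving out the lowest 25%, a replicate block, summed windows, genes within 10000 bp, a threshold of 0.01, a fit without chromosome 11, ends within 500 bp and each library omitted in turn. The remaining library of that group is then taken to vary like those of the other. The table had 0 columns of other samples. One listed leukocyte marker is not reported here.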

Additional observations from a re-analysis of the deposited data

How the results depend on the processing

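Of the 126 called member regions none reversed its direction under any alternative run. Of them, 50 kept both direction and call under every alternative that gave a value, and 55 with each library left out. Calls were lost at 64 regions with DESeq2, 49 without control replicate 2, 43 without Notch2_cKO replicate 1, 36 without control replicate 1, 23 with summed windows, 15 with the replicate block, 11 with limma-trend, 9 without Notch2_cKO replicate 2 and 3 with TMM scaling. Of the 13 called gene sums 3 lost the call with TMM scaling, 3 with median centring, 3 with DESeq2, 3 with the replicate block and 2 with genes within 10000 bp. Sums that lost it with a library left out are named above.

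Counts are given as higher and lower. With DESeq2 they were 31 and 32 for all members (6.86% and 7.08%, beside 6.69% and 4.93% of all regions), 19 and 15 for integrins, 1 and 8 for immunoglobulin-type genes and 11 and 9 for cadherins. DESeq2 also gave 1 higher gene-end region, 25 and 16 for linker genes and 10 lower for other receptors. At an adjusted p under 0.01 they were 34 and 44 for all members, 20 and 22 for integrins, 2 and 11 for immunoglobulin-type genes, and 11 lower for cadherins. All regions were not counted at that threshold, so these counts have no background to be set against. With genes within 10000 bp, 20 integrin and 11 other receptor regions were lower. With summed windows there were 4 higher immunoglobulin-type and 1 higher gene-end region. TMM scaling and median centring gave 4 lower gene-end regions each.

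With a library left out, member counts ran from 33 to 60 higher and 47 to 79 lower, while all regions ran from 8856 to 15579 and from 8035 to 14677. Integrins ran from 18 to 34 and 22 to 38, immunoglobulin-type genes from 2 to 6 and 12 to 20, and cadherins from 13 to 20 and 11 to 21. Gene-end regions ran from 0 to 6 and 0 to 4, member gene sums from 4 to 11 and 2 to 7, linker genes from 30 to 56 and 20 to 35, and other receptors from 17 to 27 and 12 to 26.

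With the replicate block, members had 48 higher and 63 lower of 452 regions, where all 110110 regions had 12211 and 10946. Among the members, 4 were higher at immunoglobulin-type genes and 1 at gene ends. Deviations of same-numbered libraries correlated at -0.181 over 98649 regions, and with only 2 numbers the pairing was not taken as shown. With the crossed replicate block, chosen after seeing the data, members had 67 higher and 84 lower regions and linker genes 44 lower. All regions had 18065 higher and 16893 lower in that fit.

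Values near 0 that were not called changed sign. With TMM, median centring and DESeq2, the start of Itga1 was -0.21 each time, that of Itgb8 -0.08, -0.08 and -0.07, that of Vcam1 -0.02, -0.02 and -0.01, and the sum of Itgb1 -0.05 each time. With summed windows the start of Itgb8 was -0.03, and with genes within 10000 bp the sum of Vcam1 was 0.11. With a library left out, the start of Itga1 ran from -0.09 to 0.10, that of Itgb8 from -0.08 to 0.10, that of Vcam1 from -0.01 to 0.26, that of Cadm2 from -0.12 to 0.06, the Icam1 region from -0.61 to 0.49 and the sum of Vcam1 from -0.11 to 0.08. The cause of these changes was not tested.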
